A study of Mus musculus with 4 samples.

Results

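The neutrophil transcripts *S100a8*, *S100a9*, *Ngp*, *Camp*, *Ltf* and *Lcn2* were followed through the single-cell RNA sequencing of hepatic CD4+ T cells. They are 6 of the 32285 genes counted, and they were chosen on their counts in these same libraries, where they were found mostly in the cells labelled dKO, so their difference between the genotypes and the cells that define it are described here without a test. One library was made from WT mice and 1 from *Nr4a1* fl/fl *Nr4a2* fl/fl *Cd4*-Cre (dKO) mice, each from 2 male mice that had been fed CD, a diet without choline that holds 60 kcal% fat and 0.1% methionine to induce metabolic dysfunction-associated steatohepatitis (MASH). Cells of the pooled mice are not told apart in the files, so each genotype is 1 sample. *Cd4*-Cre acts in T cells, so neutrophils are not the cells it targets. Cells were sorted as CD4+ T cells before capture, and neutrophils are not a target of that gate either. Libraries of the T cell receptor (TCR) from the same cells gave a second label for T cells that does not depend on gene counts.

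Neutrophils store antimicrobial proteins in granules that are filled one after another while the cell matures in the bone marrow. Primary granules, with myeloperoxidase and elastase, are made first, and secondary (specific) granules follow, so their transcripts mark an immature stage and fade in the mature cell that circulates. *Ngp* encodes neutrophilic granule protein, *Camp* the precursor of the cathelicidin peptide, *Ltf* lactoferrin, which binds iron, and *Lcn2* lipocalin 2, which binds the siderophores with which bacteria collect iron. These belong to the secondary granule program. *S100a8* and *S100a9* encode both subunits of calprotectin, which lies in the cytosol rather than in granules and which mature neutrophils and some monocytes also make. In fatty liver disease neutrophils are among the cells that enter the inflamed liver.

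On GRCm38 the members lie in 3 places. *S100a8* (ENSMUSG00000056054, chromosome 3 from 90668978 to 90670035, plus strand, 3 exons) and *S100a9* (ENSMUSG00000056071, chromosome 3 from 90692632 to 90695721, minus strand, 3 exons) are neighbours. *Camp* (ENSMUSG00000038357, 109847379 to 109849617, minus strand, 4 exons), *Ngp* (ENSMUSG00000032484, 110419747 to 110423012, plus strand, 4 exons) and *Ltf* (ENSMUSG00000032496, 111019271 to 111042767, plus strand, 17 exons) follow each other on chromosome 9. *Lcn2* (ENSMUSG00000026822) is on chromosome 2 from 32384633 to 32388252, minus strand, with 6 exons.

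The sequence before the start of each member was searched for the letters TTNNGCAA, which C/EBP factors can bind, and GAGGAA, which PU.1 can bind, as both kinds of factor take part in granulocyte development. Both strands of the 250 bases upstream of the RefSeq start (GRCm38.p6) were read, all 6 members had an entry, and no match of 1 motif overlapped the other. TTNNGCAA was found before 4 members, *S100a9* (236 bases before the start), *Ngp* (138 and 11 bases), *Ltf* (75 bases) and *Lcn2* (216 bases). Of all 32851 promoters in the table, 9.56% held it. GAGGAA was found before 3 members, *S100a8* (170 and 36 bases), *Ltf* (157 bases) and *Lcn2* (20 bases), and in 23.3% of all promoters. *Camp* held neither string of letters in this window. The stretches of the 4 members below show matches in capitals as they read on the gene's strand, so that TTCCTC is GAGGAA of the other strand. They end before the first base that any GENCODE transcript of the gene places in an exon, which leaves out the nearer match of *S100a8* and of *Ngp*. They cover chr3:90668821-90668977 (plus strand) for *S100a8*, chr3:90695722-90695971 (minus) for *S100a9*, chr9:110419558-110419746 (plus) for *Ngp* and chr9:111019042-111019270 (plus) for *Ltf*. A match is a description of the sequence and not of binding.
S100a8: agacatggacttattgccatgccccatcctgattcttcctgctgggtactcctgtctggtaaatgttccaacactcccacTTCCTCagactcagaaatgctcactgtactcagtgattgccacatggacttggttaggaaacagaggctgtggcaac
S100a9: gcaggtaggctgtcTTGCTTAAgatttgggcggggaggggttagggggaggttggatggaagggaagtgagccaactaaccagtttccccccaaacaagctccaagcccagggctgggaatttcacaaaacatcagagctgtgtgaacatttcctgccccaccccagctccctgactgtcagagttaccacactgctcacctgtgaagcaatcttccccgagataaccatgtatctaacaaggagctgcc
Ngp: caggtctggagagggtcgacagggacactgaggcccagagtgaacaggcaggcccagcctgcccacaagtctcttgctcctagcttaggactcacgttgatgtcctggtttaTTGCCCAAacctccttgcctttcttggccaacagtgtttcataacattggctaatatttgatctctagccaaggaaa
Ltf: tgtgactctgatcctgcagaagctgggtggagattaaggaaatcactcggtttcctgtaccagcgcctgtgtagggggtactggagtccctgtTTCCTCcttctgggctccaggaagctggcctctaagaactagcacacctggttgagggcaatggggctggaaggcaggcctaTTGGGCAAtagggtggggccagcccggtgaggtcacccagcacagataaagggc

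Total counts were 23437516 unique molecular identifiers (UMIs) in 10556 cells of the library labelled WT and 37794986 in 17462 cells of the library labelled dKO, with medians of 1679 and 1685 UMIs per cell. A contig of the TCR beta chain (TRB) was found for 3455 cells (32.7%) and 4096 cells (23.5%). Levels are given as CPM, a gene's UMIs for each 1000000 UMIs of the cells in question, and since the 5′ kit counts 1 end of each molecule they were not divided by gene length. Intervals in parentheses are exact 95% intervals and cover counting error only, not the difference between mice or preparations. The targeted genes go against the labels, as *Nr4a1* had 725 CPM under the label WT and 1659 CPM under the label dKO, and *Nr4a2* had 183 and 306 CPM. The paper reports more regulatory T cells in dKO livers. The list of 5 genes of these cells ran the way the labels say, with 698 and 2309 CPM. The counts do not tell floxed exons from the others, and every direction below rests on the labels. The libraries share 245 cell barcodes, none of which belonged to a cell rich in the members.

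Summed over all cells, the 6 members had 157 UMIs under the label WT and 23234 under the label dKO, that is 6.70 CPM (5.69 to 7.83) against 615 CPM (607 to 623), a ratio of 91.8 (78.4 to 108). In the library labelled dKO *S100a9* had the most, with 64 and 9269 UMIs under the labels WT and dKO (2.73 and 245 CPM, ratio 89.8, 70.3 to 117), followed by *S100a8* with 86 and 7624 UMIs (3.67 and 202 CPM, ratio 55.0, 44.5 to 68.8). The secondary granule transcripts were almost confined to the library labelled dKO. *Ngp* had 0 and 2861 UMIs and *Camp* 0 and 1692. Against 3 UMIs, the limit that a count of 0 allows in the library labelled WT (0.128 CPM), these were at least 591-fold and 349.8-fold higher, and with the counting error of both libraries their exact intervals start at 481 and 284. *Ltf* had 1 and 624 UMIs (ratio 387, 69.2 to 15308) and *Lcn2* 6 and 1164 UMIs (ratio 120.3, 55.1 to 328). All 6 members were thus at least 2-fold higher in the library labelled dKO, as were 7.71% of the 16157 genes with at least 10 UMIs, but this contrast chose the members and nothing is read from their count.

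The level of the library came from very few cells. With 10 or more *S100a8* and *S100a9* UMIs together as the limit, 35 of 17462 cells labelled dKO (0.20%, 0.140 to 0.279) and 3 of 10556 labelled WT (0.0284%, 0.00586 to 0.0830) were above it, here called high cells. The ratio of these shares was 7.05 (2.22 to 35.8), smaller than the ratio of UMIs, and the high cells also differed in how much they held. In the library labelled dKO the 35 cells held 99.2% (99.1 to 99.3) of the members' UMIs. They held 98.9% of the *S100a8* UMIs, 99.2% of *S100a9*, 99.5% of *Ngp*, 99.9% of *Camp*, 99.4% of *Ltf* and 99.1% of *Lcn2*. The 10 cells with the most already held 75.7% (75.1 to 76.2) of all member UMIs. In the library labelled WT the 3 high cells held 50 of 157 UMIs, or 31.8% (24.6 to 39.7), all of them *S100a8* or *S100a9*.

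Without the high cells the libraries were nearly alike. The limit fixes part of this, as it removes cells by the *S100a8* and *S100a9* UMIs that are counted here. The cells under the limit had 107 member UMIs in 10553 cells labelled WT (4.57 CPM, 3.74 to 5.52) and 190 in 17427 cells labelled dKO (5.04 CPM, 4.35 to 5.81), and the ratio was 1.10 (0.867 to 1.41). For *S100a8* it was 0.90 (0.637 to 1.28), with 58 and 84 UMIs, and for *S100a9* 1.14 (0.773 to 1.70), with 42 and 77 UMIs. *Ngp* was the member whose interval did not include equal levels, with 0 and 13 UMIs in as many cells. It had 0.345 CPM (0.184 to 0.590) in the library labelled dKO, at least 2.69-fold higher against the 3 UMIs allowed. With the counting error of the 13 UMIs included, the exact interval of this ratio starts at 1.89. The members were chosen on their counts in these libraries, so no difference between the libraries is read from this.

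**Figure D1:**
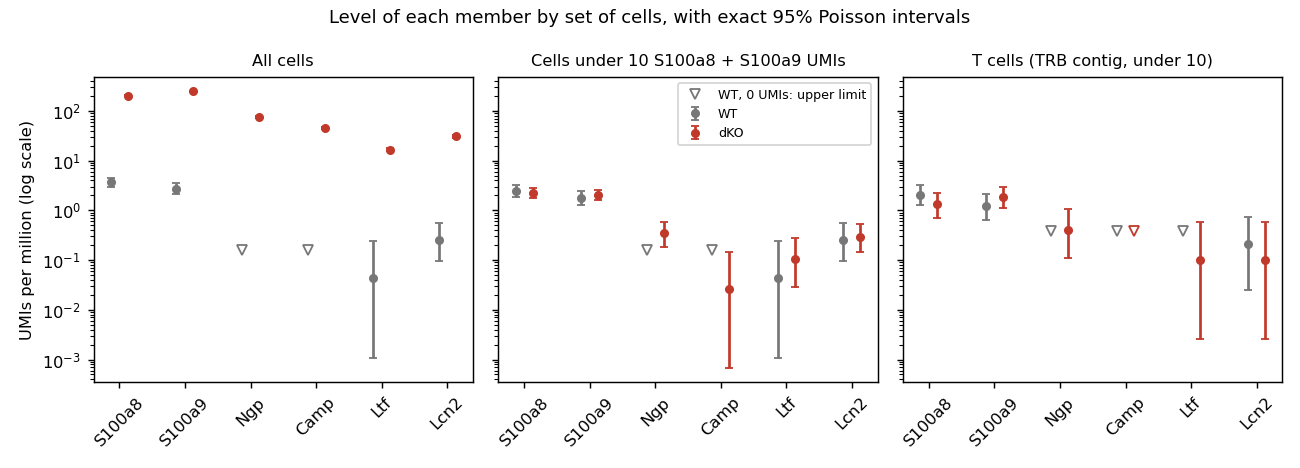
Level of each member in CPM, on a log scale, in all cells, in cells under 10 *S100a8* and *S100a9* UMIs and in T cells, for the library labelled WT (grey) and dKO (red), with exact 95% Poisson intervals; open triangles mark the upper limit where no UMI was counted. In all cells dKO stands above WT for every member, whereas in T cells each pair of intervals or limits overlaps.

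The count of *S100a8* and *S100a9* per cell ran without a wide gap in WT and had a long upper tail in dKO. Of the cells labelled WT, 10500 had no UMI, 38 had 1, 5 had 2, 5 had 3 to 4, 5 had 5 to 9 and 3 had 10 to 19. Of the cells labelled dKO, 17346 had none, 55 had 1, 10 had 2, 8 had 3 to 4, 8 had 5 to 9, 2 had 10 to 19, 14 had 20 to 99 and 19 had 100 or more. These last 19 cells held 22418 of the members' UMIs. Just above the limit stood cells with 14, 17 and 19 UMIs labelled WT, and with 10, 19, 20 and 20 labelled dKO. Just below it stood a cell with 9 labelled WT and a pair of cells with 9 labelled dKO. At a limit of 20 UMIs no cell labelled WT was left, and 0.189% of the cells labelled dKO were.

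**Figure D2:**
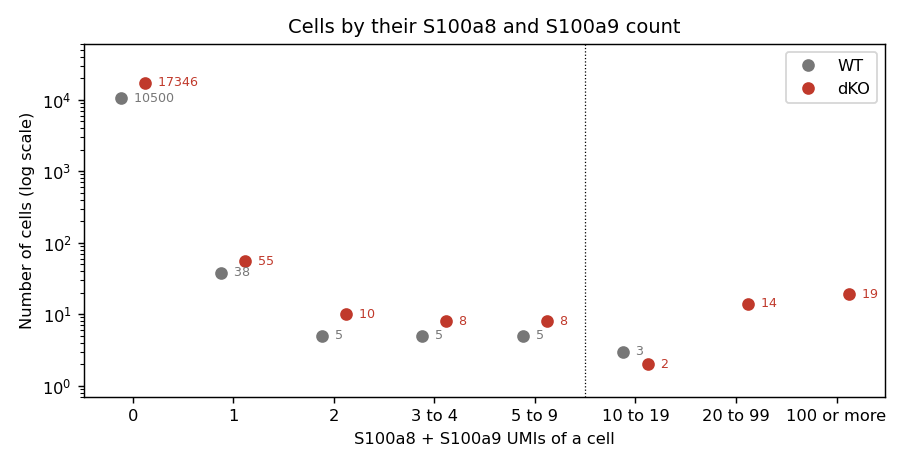
Number of cells, on a log scale, by their summed *S100a8* and *S100a9* UMIs in the library labelled WT (grey) and dKO (red), with the number beside each point and a dotted line at the limit of 10 UMIs. Cells with 20 or more UMIs, 14 and 19 in the upper bins, were seen in the library labelled dKO only.

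The 35 high cells labelled dKO fell into 2 ranges by *Ngp*, a division made after the values were seen. In 14 cells *Ngp* ran from 16 to 442 UMIs with a median of 199. In the other 21 cells it was 0 in 19 and 3 in each of the remaining pair. The 14 *Ngp*-rich cells were the 14 with the most *S100a8* and *S100a9*, 477 to 1499 UMIs with a median of 1107, against 10 to 447 with a median of 40 in the *Ngp*-poor cells, so that the ranges did not overlap. The members took up 37.0% of all UMIs of the *Ngp*-rich cells and 3.86% of those of the *Ngp*-poor cells. Within a single *Ngp*-rich cell this share ran from 10.6% to 55.7% with a median of 48.4%, and *S100a9* was the gene with the most UMIs in the high cells as a whole.

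Every *Ngp*-rich cell carried all 6 members. *Camp* ran from 6 to 216 UMIs with a median of 113, and none of the 21 *Ngp*-poor cells had a UMI of it. *Ltf* ran from 1 to 96 with a median of 40 and was likewise at 0 in all 21. *Lcn2* ran from 19 to 190 with a median of 74.5, and in the *Ngp*-poor cells it was found in 8 of 21, at most with 27 UMIs. *S100a8* itself ran from 169 to 705 UMIs in the *Ngp*-rich cells and from 7 to 196 in the *Ngp*-poor cells, and *S100a9* from 308 to 821 and from 3 to 251. The mixture of members thus differed between both ranges, and for *Ngp* this was fixed by the division. For 100 *S100a8* UMIs the *Ngp*-rich cells had 42.5 (40.7 to 44.4) of *Ngp*, 25.3 (24.0 to 26.7) of *Camp*, 9.28 (8.53 to 10.1) of *Ltf* and 16.6 (15.5 to 17.7) of *Lcn2*. The *Ngp*-poor cells had 0.699 (0.256 to 1.53) of *Ngp* and 5.24 (3.80 to 7.08) of *Lcn2*, or 0 and 2.07 (0.989 to 3.85) without the pair of cells that had 3 *Ngp* UMIs each, and for *Camp* and *Ltf* at most 0.431 was allowed by their count of 0. The ratio of *S100a8* to *S100a9* hardly moved, 81.5 (78.9 to 84.2) and 86.1 (78.5 to 94.5) per 100.

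Single cells differed in the order of the members. The cell with the highest count had 705 *S100a8*, 794 *S100a9*, 322 *Ngp*, 167 *Camp*, 83 *Ltf* and 190 *Lcn2* UMIs of 8124 in all. The cell with the most *Ngp*, 442 UMIs of 3284, had 350 *S100a8* and 564 *S100a9* with 198 *Camp*, 96 *Ltf* and 47 *Lcn2*. At the lower end of the *Ngp*-rich range a cell with 4881 UMIs had 169 *S100a8* and 308 *S100a9* but 16 *Ngp*, 6 *Camp*, 1 *Ltf* and 19 *Lcn2*. The next cell down had 196 *S100a8*, 251 *S100a9*, 3 *Ngp* and 27 *Lcn2*, with no *Camp* or *Ltf*. Members were correlated across the 14 *Ngp*-rich cells on a log scale, after scaling to each cell's total UMIs. *Ngp* and *Ltf* had a Pearson correlation of 0.96, *Ngp* and *Camp* 0.92, and *S100a8* and *S100a9* 0.93, whereas *S100a8* and *Camp* had 0.51. By Spearman these were 0.85, 0.71, 0.95 and 0.00. The cells differ in depth, from 1349 to 8124 UMIs, and come from 1 library, so these values only describe them.

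**Figure D3:**
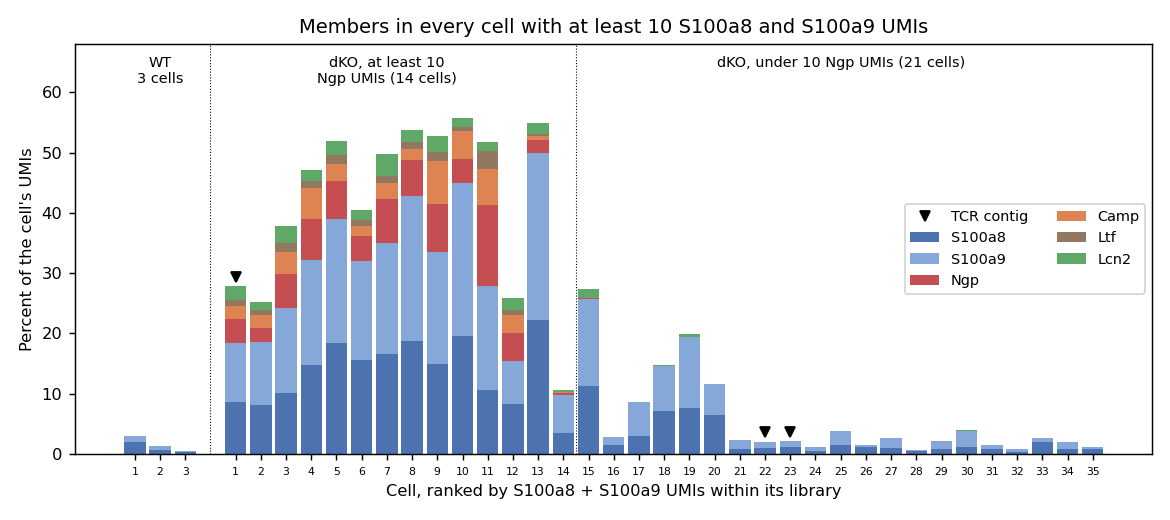
Share of each member in the UMIs of every high cell, ranked by *S100a8* and *S100a9* UMIs within its library, with a triangle over cells that have a TCR contig. The 14 *Ngp*-rich cells hold from 10.6% to 55.7% of their UMIs in the members, and *Ngp*, *Camp* and *Ltf* are seen there and almost nowhere else.

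Other genes of neutrophils, which the choice of the high cells did not use, were then read from fixed lists and set against the T cells of the same library (a TRB contig and fewer than 10 *S100a8* and *S100a9* UMIs, 4094 cells). Of the 15145 genes tested 3.35% were at least 8-fold higher in the high cells, and the median ratio over all of them was 0.317. The members took 216410 CPM there, which lowers the CPM of all other genes. The 6 members passed this limit by the way the cells were chosen. A gene that reached the minimum of 10 UMIs only through the high cells had to pass as well, so the lists were counted over genes with at least 10 UMIs outside the high cells, 3.18% of which were at 8-fold or more. Of the other secondary and tertiary granule genes 7 of 9 passed, of the receptors and surface genes 7 of 10, of cytosolic and secreted genes 4 of 7, of activation genes 8 of 10 and of granulocyte transcription factors 2 of 5. Their median ratios were 31.4, 129.9 and 22.0 for the first 3 lists, 40.6 for activation and 5.21 for transcription factors. With the other tested genes included, the first pair of lists had 8 of 10 and 9 of 12 genes at 8-fold or more, with medians of 37.7 and 199.6. In the 27 high cells that were no predicted doublets, had no contig and had fewer than 10 UMIs of a list of macrophage genes, 8 of 9, 7 of 10, 4 of 7, 7 of 10 and 2 of 5 genes of the lists were at 8-fold or more, against 2.72% of all genes tested. Genes of the primary granules were not seen. *Mpo*, *Elane*, *Prtn3* and *Ctsg*, which encode myeloperoxidase and the serine proteases made at the earliest stage, had no UMI in any of the 35 cells.

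*Retnlg*, which encodes a resistin-like protein of neutrophils, had 495 of its 497 UMIs in the high cells and none in T cells, and was found in 21 of the 35. The neutrophil surface marker *Ly6g* had 47 UMIs in 10 cells, *Cxcr2*, the receptor for the chemokine CXCL2, 11 UMIs in 9 cells, and *Csf3r*, the receptor for granulocyte colony-stimulating factor, 23 UMIs in 13 cells, with 0, 0 and 4 UMIs in the T cells. *Mmp8*, neutrophil collagenase, had 394 CPM against 0.102 CPM, and *Lyz2*, lysozyme, 5588 against 178 CPM (ratio 31.4, 28.5 to 34.5). *Cebpb* and *Spi1*, which encode C/EBP beta and PU.1, had 2282 and 357 CPM (ratios 5.21, 4.56 to 5.93, and 28.4, 19.2 to 41.2). *Cebpe*, the factor that drives secondary granule genes, had 3 UMIs in 2 cells, both of them *Ngp*-rich. Of the 4 genes listed as receptors of S100A8 and S100A9, *Cd33* had 11 UMIs in 7 cells (103 against 8.57 CPM, ratio 12.1, 5.80 to 22.7), and *Tlr4*, *Ager* and *Cd36* had none.

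The *Ngp*-rich and *Ngp*-poor cells also differed in genes outside the members. *Ly6g* (823 CPM in 10 of 14 cells) and *Chil3*, a chitinase-like protein (3378 CPM in 12 of 14), had no UMI in the *Ngp*-poor cells. *Wfdc21* had 3535 against 223 CPM (ratio 15.9, 8.68 to 32.3), *Anxa1*, which encodes annexin A1, 3343 against 223 CPM (15.0, 8.19 to 30.5), *Pglyrp1*, a peptidoglycan-binding granule protein, 4113 against 669 CPM (6.15, 4.26 to 9.14) and *Lyz2* 9048 against 1581 CPM (5.72, 4.50 to 7.36). *Itgam*, the integrin chain CD11b, had 438 and 40.5 CPM (10.8, 2.69 to 94.0). In the other direction, some of the genes that activated neutrophils make were higher in the *Ngp*-poor cells. *Il1b*, interleukin 1 beta, had 87.5 CPM in the *Ngp*-rich and 2837 CPM in the *Ngp*-poor cells (ratio of rich to poor 0.0308, 0.00986 to 0.0737), *Cxcl2* 560.1 and 11004 CPM (0.0509, 0.0345 to 0.0727) and *Acod1*, which makes itaconate, 140.0 and 3648 CPM (0.0384, 0.0163 to 0.0773). *Wfdc17* had 1 UMI against 54, and *Csf1*, *Clec4d* and *Cxcr4* had none in the *Ngp*-rich cells against 25, 24 and 17 UMIs. *Retnlg* (5496 and 3668 CPM) and *Cxcr2* (105.0 and 101 CPM) were found in both. The division by *Ngp* was made on these same cells, so these values are descriptions of 14 and 21 cells of 1 library. Lists of other cells differed in both directions. The macrophage list had 5 UMIs in the *Ngp*-rich and 146 in the *Ngp*-poor cells, and the T cell list 35 and 137. The monocyte list had 67 and 23, the plasmacytoid dendritic cell list 102 and 70 and the cycling list 32 and 7. The cell with the most activation UMIs (207 of 1107 in the *Ngp*-poor cells) had 65 of the macrophage list and 30 of *S100a8* and *S100a9*. Single cells did not follow 1 pattern. A cell with 78 UMIs of the macrophage list had 17 activation UMIs, and another with 113 activation UMIs had 0 of the macrophage and T cell lists. Without the 8 cells that were predicted doublets, had a contig or had at least 10 UMIs of the macrophage list, the ratio of rich to poor was 0.0139 (0.00283 to 0.0419) for *Il1b*, 0.0370 (0.0238 to 0.0551) for *Cxcl2* and 0.0173 (0.00554 to 0.0415) for *Acod1*, from 12 and 15 cells. These 27 cells still had 78 UMIs of the T cell list and 52 of the list for regulatory T cells. Among them an *Ngp*-poor cell with 127 activation UMIs had 24 and 25 of these lists.

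The list of activation genes summed to 157 UMIs in the *Ngp*-rich and 1107 UMIs in the *Ngp*-poor cells, although the latter held fewer UMIs in all, 49346 against 57137. Per cell it ran from 0 to 40 UMIs with a median of 7.5, and from 1 to 207 with a median of 47, so the ranges overlapped. The 10 other granule genes ran from 49 to 172 UMIs per cell in the *Ngp*-rich and from 0 to 140 in the *Ngp*-poor cells, with medians of 98 and 6. Depth differed as well, with a median of 3496 UMIs and 934 genes against 1384 UMIs and 774 genes.

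**Figure D4:**
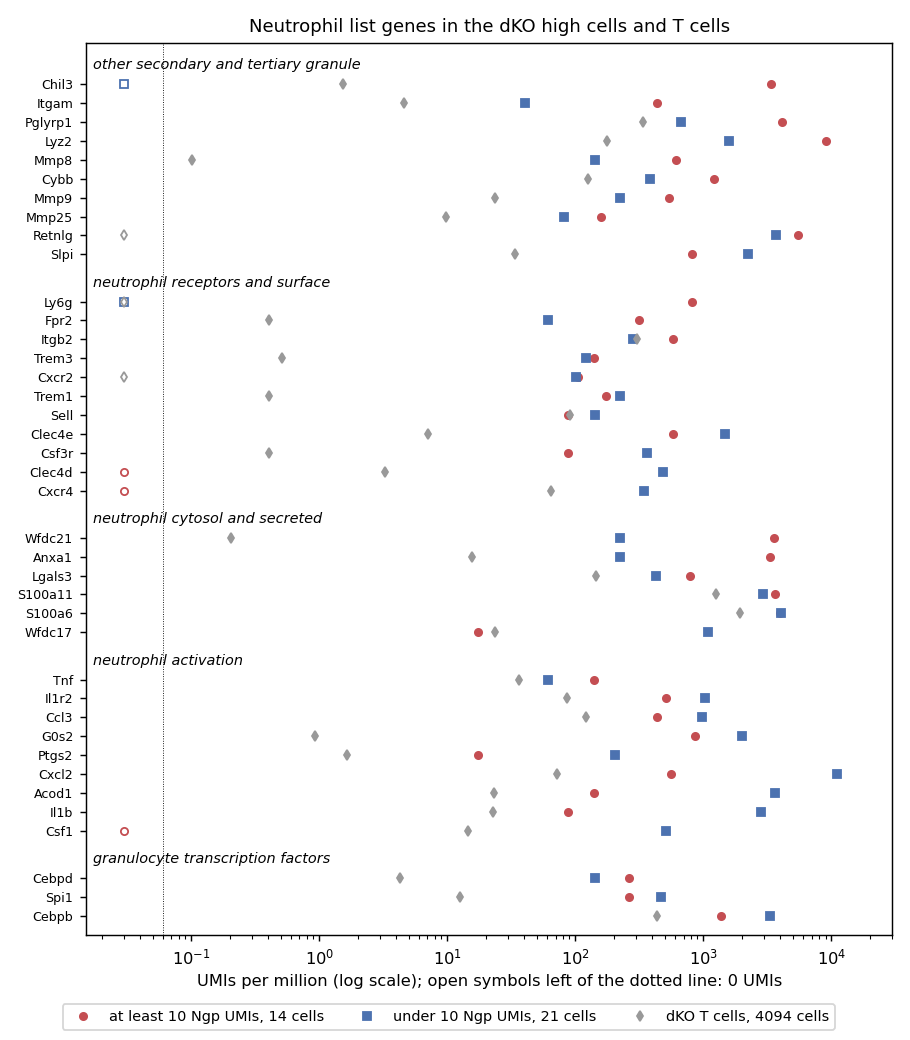
Level, in CPM on a log scale, of neutrophil list genes with at least 10 UMIs in the dKO high cells, in the 14 *Ngp*-rich cells (red), the 21 *Ngp*-poor cells (blue) and the T cells of the same library (grey), with open symbols where no UMI was counted. *Chil3* and *Ly6g* stand at 3378 and 823 in red and at 0 in blue, while *Cxcl2*, *Acod1* and *Il1b* stand at 11004, 3648 and 2837 in blue.

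Markers of other cells were present in some of the high cells. A TCR contig was found in 3 of 35 (8.57%, 1.80 to 23.1), against 28.1% (27.4 to 28.8) of the cells labelled dKO under the limit. The cell with the highest count of all was 1 of them, with 1 TRA and 1 TRB contig, 14 UMIs of the T cell list and 25 of the list for regulatory T cells. The T cell list of 10 genes had a median of 1 UMI in the high cells and 12 in the T cells, with no UMI in 8 of the 14 *Ngp*-rich and 7 of the 21 *Ngp*-poor cells and 37 at most, and *Cd3e* had 122 CPM in the *Ngp*-rich and 426 CPM in the *Ngp*-poor cells against 1049 CPM in T cells. Without the 3 cells with a contig the share of high cells was 0.255% of the cells labelled dKO without a contig, and without the 5 that were predicted to be doublets 0.20%. The monocyte list of 8 genes had 845 CPM in the high cells and 369 CPM in T cells, with a median ratio of 1.74 and 1 gene at 8-fold or more. Most of its 90 UMIs were of *Ly6c2*, which neutrophil precursors share with monocytes, with 64 UMIs in the *Ngp*-rich and 7 in the *Ngp*-poor cells, while *Csf1r* had 3 UMIs and *Fn1* and *Vcan* none. The macrophage list had 1418 CPM against 233 CPM in T cells, with 1 gene of 10 at 8-fold or more and 6 at 0. Of its 151 UMIs 146 lay in *Ngp*-poor cells, 78 in 1 cell and 65 in another, and they were of *Apoe* (86 UMIs), *C1qb* (38), *C1qc* (15) and *C1qa* (12). The list for plasmacytoid dendritic cells had 172 UMIs, as many as the T cell list, at 1615 CPM in the high cells and 1623 CPM in T cells. It was found in 4 *Ngp*-rich and 6 *Ngp*-poor cells, with 67 UMIs in 1 *Ngp*-rich cell that was not a predicted doublet and with 43 and 31 in a pair of predicted doublets. The B cell list had 20 UMIs, all in 1 *Ngp*-poor cell, which had 12424 UMIs and was among the predicted doublets. Through this 1 cell 3 of its 5 genes were at 8-fold or more (median 14.5), and none was in the 27 cells left without doublets, contigs and macrophage UMIs, in which the monocyte and macrophage lists had none either and a list of hepatocyte genes had 1 of 6 (13 UMIs). The CD8 T cell list had 14 UMIs in 5 high cells, 10 of them in the same cell with 12424 UMIs. Of its genes 1 of 2 was at 8-fold or more (median 6.49), and 0 in the 27 cells. The part of other cells in these values was not tested beyond these counts.

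The 3 high cells labelled WT all fell in the *Ngp*-poor range. They had 12, 8 and 8 *S100a8* and 7, 9 and 6 *S100a9* UMIs in 625, 1341 and 2875 UMIs, or 3.04%, 1.27% and 0.487% of the cell, against 0.676% to 27.4% with a median of 2.33% in the 21 *Ngp*-poor cells labelled dKO. None had a UMI of *Ngp*, *Camp*, *Ltf* or *Lcn2*, none had a TCR contig, and 1 was a predicted doublet. Of the other secondary and tertiary granule genes they had 3 UMIs in all, 1 each of *Retnlg*, *Itgam* and *Pglyrp1*, and of the receptors and surface genes 1 UMI. *Il1b* had 10 UMIs. The T cell list ran from 1 to 5 UMIs per cell, and the macrophage list had 7 UMIs, all in 1 cell, 5 of them *Apoe*. Cells like the 14 *Ngp*-rich ones, which held 91.0% of the members' UMIs in the library labelled dKO, were not detected among 10556 cells labelled WT, where a count of 0 allows up to 3 cells, a share of 0.0284%. With 1 library per genotype, a difference of genotype cannot be told apart from one between mice or between libraries.

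T cells should lack the members, and the source of the UMIs counted in them, free RNA or another, was not tested. The level below is that of T cells and not of every cell under the limit. The 6 members had 34 UMIs in 3455 T cells labelled WT and 37 in 4094 labelled dKO, 3.50 CPM (2.42 to 4.89) and 3.77 CPM (2.66 to 5.20), a ratio of 1.08 (0.658 to 1.77). A level that differed 91.8-fold between the whole libraries thus did not differ beyond counting error in T cells. The upper bound was 1.77-fold with each UMI counted as independent. *S100a8* had 20 and 13 UMIs (2.06 and 1.33 CPM, ratio of dKO to WT 0.644, 0.294 to 1.36) and *S100a9* 12 and 18 UMIs (1.24 and 1.84 CPM, ratio 1.49, 0.677 to 3.38). *Ngp* had 0 and 4 UMIs, *Camp* none in either, *Ltf* 0 and 1 and *Lcn2* 2 and 1. Neither of the 2 members with at least 10 UMIs was 2-fold higher in the T cells labelled dKO, against 6.62% of the 13723 genes tested there. The share of T cells with a UMI of any member was 0.492% (0.287 to 0.787) and 0.513% (0.318 to 0.783), at median depths of 2216 and 1758 UMIs, against 0.587% and 0.802% of all cells. With each cell thinned to 2000 UMIs, which left 1996 and 1740 T cells, the shares were 0.20% (0.0546 to 0.512) and 0.460% (0.199 to 0.904). Each share is from its own random draw. *S100a8* alone was drawn in 5 of the 1996 cells labelled WT, against 4 for any member, so the thinned shares also carry the error of the draw. The limit of 10 UMIs matters here, since a pair of the high cells labelled dKO had a TRB contig, and with them kept in the level of the T cells labelled dKO was 241 CPM.

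The few *S100a8* and *S100a9* UMIs in T cells did not lie 1 to a cell. The intervals for T cells count each UMI as independent, so they may be too narrow by an amount that was not measured. Among T cells labelled WT, 8 cells had 1 UMI and 7 had 2 or more, and among those labelled dKO 13 had 1 and 5 had 2 or more, with 6 as the highest count in both. Among all cells under the limit, 38 cells labelled WT had 1 UMI and 15 had 2 or more, against 55 and 26 labelled dKO. With T cells divided by depth into 3 groups of nearly equal size, the level of *S100a8* and *S100a9* was 4.65, 3.85 and 2.67 CPM from the shallowest to the deepest for WT, and for dKO it was 0.680, 2.85 and 3.92 CPM. The intervals of these groups overlapped within each library.

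The mixture of members under the limit was set against that of the 35 high cells pooled, in which the *Ngp*-rich cells hold most UMIs. In the cells labelled dKO under the limit there were 15.5 *Ngp* UMIs (7.91 to 27.9) and 1.19 *Camp* UMIs (0.0298 to 6.82) for 100 of *S100a8*, against 37.8 (36.2 to 39.4) and 22.4 (21.3 to 23.6) in the high cells, and these intervals do not overlap. For *Lcn2* they do, 13.1 (6.30 to 24.6) against 15.3 (14.4 to 16.3), and for *Ltf* as well, 4.76 (1.27 to 12.7) against 8.22 (7.56 to 8.93). For the 21 *Ngp*-poor cells taken alone the interval for *Camp* (0 to 0.431) overlaps with that under the limit, and that for *Ltf* (0 to 0.431) does not. For *Lcn2* it overlaps (3.80 to 7.08), but not without the pair of cells that had 3 *Ngp* UMIs each (0.989 to 3.85). The *Ngp* of the *Ngp*-poor cells was not compared, since it chose them. In the cells labelled WT under the limit *Lcn2* had 10.3 (3.65 to 23.9) per 100 and *Ngp* at most 6.57, and both intervals overlap with those of the 3 high cells, 0 to 14.1. In the T cells labelled dKO *Ngp* had 30.8 (7.31 to 99.6) per 100, from 4 and 13 UMIs, which does not separate it from the high cells.

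Clusters were built with the 6 members left out, and they gathered most of the high cells. Cluster 5 of 8 held 30 of the 35 cells labelled dKO, 13 of them *Ngp*-rich, and 2 of the 3 labelled WT. It had 9283 CPM of the members in the library labelled dKO and 44.5 CPM in the library labelled WT. Its 10 leading genes were immunoglobulin segments, *Thbs1*, *Clec4e*, *Chil1*, *Ifitm6* and *Retnlg*, 2 of them in the neutrophil lists, and it is left without a name. The other high cells labelled dKO were in cluster 0 (2), cluster 1 (2) and cluster 4 (1). Among its cells under the limit, cluster 5 had 19.3 CPM (12.9 to 27.7) of *S100a8* and *S100a9* for WT, and for dKO 20.8 CPM (15.3 to 27.7). Cluster 0, the largest with WT cells, had 3.84 CPM (2.78 to 5.18) and 5.38 CPM (3.95 to 7.15), and cluster 1, the largest labelled dKO, 5.20 CPM (1.69 to 12.1) and 2.49 CPM (1.56 to 3.77). Cluster 2, in which 6.92% and 5.82% of the cells had a TRB contig, had 3.48 CPM (1.90 to 5.83) and 2.16 CPM (1.44 to 3.10). Cells of cluster 5 had medians of 1838 and 2867.5 UMIs, against 1631 and 1475.5 in cluster 0. In cluster 7 no UMI was counted among 106 and 76 cells.

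**Figure D5:**
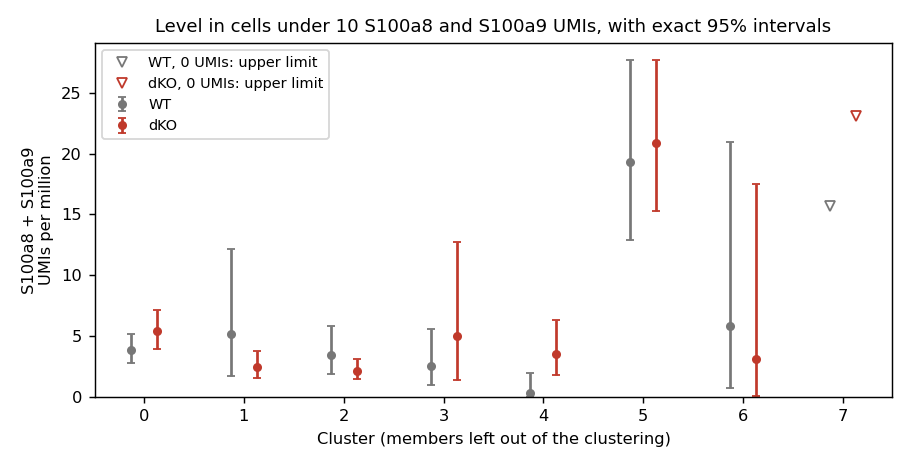
*S100a8* and *S100a9* CPM in the cells under 10 such UMIs of each cluster, for the library labelled WT (grey) and dKO (red), with exact 95% intervals and open triangles at the upper limit for clusters without a UMI. Cluster 5 stands at 19.3 and 20.8, and its intervals lie above those of clusters 0, 1, 2, 3 and 4 in both libraries.

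Genes with a pattern like that of the members were sought over all 17462 cells labelled dKO, among the 12184 other genes with at least 50 UMIs. Ranked by the share of their UMIs in the 35 high cells they were *Retnlg* (99.6%), *Ly6g* (92.2%), *Wfdc21* (89.5%), *Lrg1* (81.0%), *Mmp8* (77.8%), *Cd177* (72.4%), *G0s2* (64.5%), *Ifitm6* (53.4%), *Chil3* (38.7%) and *Trem1* (38.2%). By the Pearson correlation of log-normalized values with the summed members *Retnlg* came first (0.71), followed by *Wfdc21* (0.63), *Lrg1* (0.62) and *G0s2* (0.56), and 9 of these 10 were also in the first ranking. *Pygl* (0.36) took the place of *Chil3*. *Chil3* had 306 of its 499 UMIs, *Ifitm6* 216 of its 464 and *G0s2* 81 of its 228 outside the high cells. The other genes of the first ranking reached 50 UMIs only through the high cells. Outside them *Retnlg* had 2 UMIs, *Ly6g* 4, *Wfdc21* 25, *Lrg1* 12, *Mmp8* 12, *Cd177* 27 and *Trem1* 34. A high share was thus built into their entry, and their rank only describes these cells. In the library labelled WT *Chil3* had 113 UMIs and *Ifitm6* 68, whereas *Ly6g* had 1 and *Retnlg* 9. Over the same cells each member's correlation with the sum of the other members was 0.90 for *S100a8* and *S100a9*, 0.75 for *Lcn2*, 0.67 for *Ngp*, 0.66 for *Camp* and 0.65 for *Ltf*. These correlations rest on the 35 cells.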

How the data were processed

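Sorted hepatic CD4+ T cells of WT and dKO mice were captured with a 5′ kit, and the deposited files hold UMI counts per gene and cell and TCR contigs per cell. Per the labels, the authors made the counts with Cell Ranger 7.0.1 on mm10, and the deposited counts are not normalized. Cells needed over 200 genes and less than 5% of counts from mitochondrial genes. TCR contigs were joined to cells by barcode, and T cells are cells with a TRB contig and fewer than 10 *S100a8* and *S100a9* UMIs.

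Counts were summed per library and set of cells and given as CPM with exact Poisson intervals, shares with exact Clopper-Pearson intervals and ratios with exact conditional binomial intervals, all at 95%. Levels rest on 23437516 and 37794986 UMIs, and 3 UMIs, the limit for a count of 0, are 0.128 and 0.0794 CPM. With 1 library per genotype no test was made and no p-value is given. A ratio over many genes used genes with at least 10 UMIs, and list genes were counted at 8-fold. Doublets were predicted with Scrublet in scanpy 1.11.5 at 0.8% per 1000 cells, or by 2 or more TRB chains, which marked 999 and 2486 cells. They were kept, since with its own automatic threshold the caller marked 0 cells labelled WT and 1185 labelled dKO. Clusters were made with Seurat 5.3.0 (2000 variable genes, 30 integration dimensions, 9 principal components, resolution 0.1) with the members left out, and a name would have needed 3 detected markers. Likeness was ranked among genes with at least 50 UMIs, and the first 10 of each ranking are named. Motifs were read from 250 bases of the RefSeq promoter table. R 4.3.3, edgeR 4.0.16 (TMM factor only), Python 3.11.15, numpy 2.4.6, pandas 2.3.3, scipy 1.17.1 and matplotlib 3.10.9 were used. The code for ratios and their intervals was tested on simulated data, and the thinning code was not. Alternatives were limits of 5 and 20 UMIs, a share of the cell's UMIs as the limit, all deposited cells, leaving out predicted doublets or cells with a contig, thinning to 1000 UMIs, the mean of each cell's CPM, TMM scaling and another resolution. The members, lists and rules were chosen with earlier results of these data known, and the division at 10 *Ngp* UMIs, its alternatives, the count over genes with 10 UMIs outside the high cells and the values without doublets, contigs and cells with 10 macrophage UMIs were chosen after the values were seen.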

Additional observations from a re-analysis of the deposited data

How the results depend on the processing

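Of 257 alternative values 203 lay within the interval of the reported value, or for counts of genes within 1.5 times of it, and 54 lay outside, of which 42 were of single genes or lists. For the high cells, limits of 5 and 20 UMIs moved the library labelled WT more than the library labelled dKO. At 20 UMIs the share of high cells labelled WT was 0 and they held 0% of the members' UMIs, and at 5 UMIs they held 53.5%. In the library labelled dKO these cells held 99.4% at 5 UMIs and 99.1% at 20. The mean of each cell's CPM gave 10.5 (WT) and 406 (dKO) for the members, and without predicted doublets the level labelled dKO was 756 CPM. In T cells a limit of 5 UMIs gave 2.37 CPM labelled WT, and no limit gave 241 CPM labelled dKO. Thinned to 1000 UMIs, 0.267% (WT) and 0.556% (dKO) of cells had a UMI of a member. A separate random draw gave 0.348% (WT) and 0.535% (dKO) for *S100a8* and *S100a9* alone. In WT this exceeds the share for the 6 members, so these shares carry the error of the draw. The cause of these shifts was not tested. The *Ngp*-rich share of the high cells, 40.0% (23.9 to 57.9), was 45.7% from 3 *Ngp* UMIs, 31.4% from 100, 40.6% without contig cells and 43.3% without doublets. TMM scaling moved the ratio of the 6 members from 91.8 to 93.8. No paired analysis was possible because each genotype is 1 library and no test was made. No replicate could be left out for the same reason. Depth limits the values in T cells, which rest on 34 and 37 UMIs.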
